A study of Mus musculus with 186 samples.

Results

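The 8 immediate early genes described here are Fos, Fosb, Jun, Junb, Egr1, Ier2, Ier3 and Atf3, among 55421 genes listed in a table of single inner cells of the mouse embryo. They were chosen by name, with their transcript levels in cultured and fresh cells of these data already known, so their difference between cultured and fresh cells is given as a description with no test. Of the 8 genes, 7 passed the filter on low values, which asks that 25% of the cells of some group reach a TPM of 1, as did 11680 genes in all. Fosb did not.

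Immediate early genes are transcribed quickly and briefly after a stimulus, from factors that are already present in the cell. ERK and other kinases phosphorylate the ETS factors that sit with SRF, and CREB, at their promoters, and most of the genes encode transcription factors. They respond to growth factors, to stress and to the taking apart of tissue into single cells. In the mouse blastocyst, ERK signalling downstream of FGF4 directs inner cells towards primitive endoderm. FOS and JUN proteins pair to form the AP-1 factor.

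Inner cells were taken from embryos of CD-1 mice, a stock of outbred animals, after timed natural matings, and each was sequenced on its own. The zona pellucida was removed and outer cells were lysed by immunosurgery. Embryos at E2.75 were cultured in KSOM medium for 16 hours with 10 µM LY294002 (16h LY, 31 cells), an inhibitor of phosphoinositide 3-kinase, or with its solvent (16h DMSO, 31 cells), and for 24 hours with LY294002 (24h LY, 24 cells) or solvent (24h DMSO, 28 cells). Freshly collected embryos, with no culture, were of the stages E3.25 (19 cells), E3.75 (22 cells) and E4.0 (14 cells). No group carried a transgene or a mutation in the labels.

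Cells of 1 collection are not replicates, so each experiment (1 group on 1 date) gave 1 value, the average log2(TPM + 1) of its cells. TPM is transcript abundance scaled by transcript length to a fixed total per cell. Each culture group had 3 experiments and each fresh stage 2, which made 12 cultured and 6 fresh experiments of 3 to 18 cells, each drawn from several litters per the series' design text. The smallest was the first 16h DMSO experiment, with 3 cells. All 16h experiments carry later dates than all 24h and fresh ones, so the date and the culture time cannot be told apart. The depth of each cell is unknown. A cell had 3806 to 10220 genes at a TPM of 1 or more, with an average of 6702 ± 1420 over cultured and 6627 ± 678 over fresh experiments (SD). All 8 epiblast, 10 primitive endoderm and 11 trophectoderm markers examined were above 0 in both sets of cells, so presence alone did not separate inner from outer cells. The trophectoderm markers, of the outer cells that immunosurgery should remove, summed to 155 to 1042 TPM in cultured and 86.7 to 358 TPM in fresh experiments. The 3 blood markers summed to 0 to 22.4 TPM in cultured and 0 to 1.60 TPM in fresh experiments, and the 3 cumulus markers to at most 0.00364 TPM in cultured and 0.177 TPM in fresh ones, with Amh at 0 throughout.

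Promoters of 6 of the 8 genes, all but Egr1 and Ier2, were matched in RefSeq (GRCm38.p6; 250 bases before to 50 after the start). They are shown because shared control elements are textbook features of this class. Both strands were searched for the CArG box that SRF binds, the CRE-like TGACNTCA, the AP-1 element TGANTCA, the EGR element GCGNGGGCG and the letters TATAAA of a TATA box. The CArG box, held by 1.63% of 32851 promoters, and TGANTCA, held by 7.81%, matched none of the 6 within this window. Elements more than 250 bases before the start were not searched, so the genes may hold them there. TGACNTCA (8.83% of all promoters) was found in Jun, TATAAA (13.6%) in Fos and Junb, and GCGNGGGCG (5.55%) in Fosb. TGACNTCA and TATAAA were added to the search after the promoters had been read. The matches are printed 5′ to 3′ along each gene's strand, with the matching letters in capitals, and describe these windows only.
Jun (chr4:95052250-95052277, minus strand): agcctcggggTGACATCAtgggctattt
Fos (chr12:85473846-85473873, plus strand): cacagcgcttcTATAAAggcgccagctg
Junb (chr8:84978732-84978759, minus strand): gacaaattcagTATAAAagcttggggct
Fosb (chr7:19310077-19310104, minus strand): gacgcaagcGCGGGGGCGggtcccggag
The match in Fosb began 50 bases before the RefSeq start, that in Jun 45 and that in Fos 33 bases before it. That in Junb began at the RefSeq start itself (0 bases before it). In GENCODE M21, Junb starts at base 84978718, and the whole printed stretch of Junb lies upstream of that start.

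The genes lie on 7 chromosomes of the mouse, with Junb and Ier2 both on chromosome 8 (GENCODE M21, build GRCm38, which is mm10). Fos (ENSMUSG00000021250.13) is at chr12:85473890-85477273, Fosb at chr7:19302696-19310051, Jun at chr4:95049034-95052222 and Junb (ENSMUSG00000052837.6) at chr8:84974484-84978718. Ier2 is at chr8:84661331-84662852, Ier3 at chr17:35821684-35822923 and Atf3 at chr1:191170296-191218039. Egr1 (ENSMUSG00000038418.7) is on chromosome 18. Most have few exons: the longest coding transcripts of Jun, Junb and Ier2 have 1 exon, those of Egr1 and Ier3 have 2, and those of Fos, Fosb and Atf3 have 4.

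Cultured inner cells had less Junb and Egr1 transcript than fresh inner cells, and somewhat less Ier2 and Fos. Jun and Ier3 were not lower in culture, and Fosb and Atf3 were sparse on both sides. On the log2(TPM + 1) scale, on which changes of low genes come out too small, the difference of cultured minus fresh was -2.43 for Junb, -1.27 for Egr1, -0.90 for Ier2, -0.60 for Fos, -0.25 for Atf3, 0.18 for Jun and 0.45 for Ier3. Its median over the 7 genes was -0.60, against -0.00 over all 11680 genes. For none of the 7 were all cultured experiments on 1 side of all fresh ones, a separation that 0.0942% of all genes showed.

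**Figure D1:**
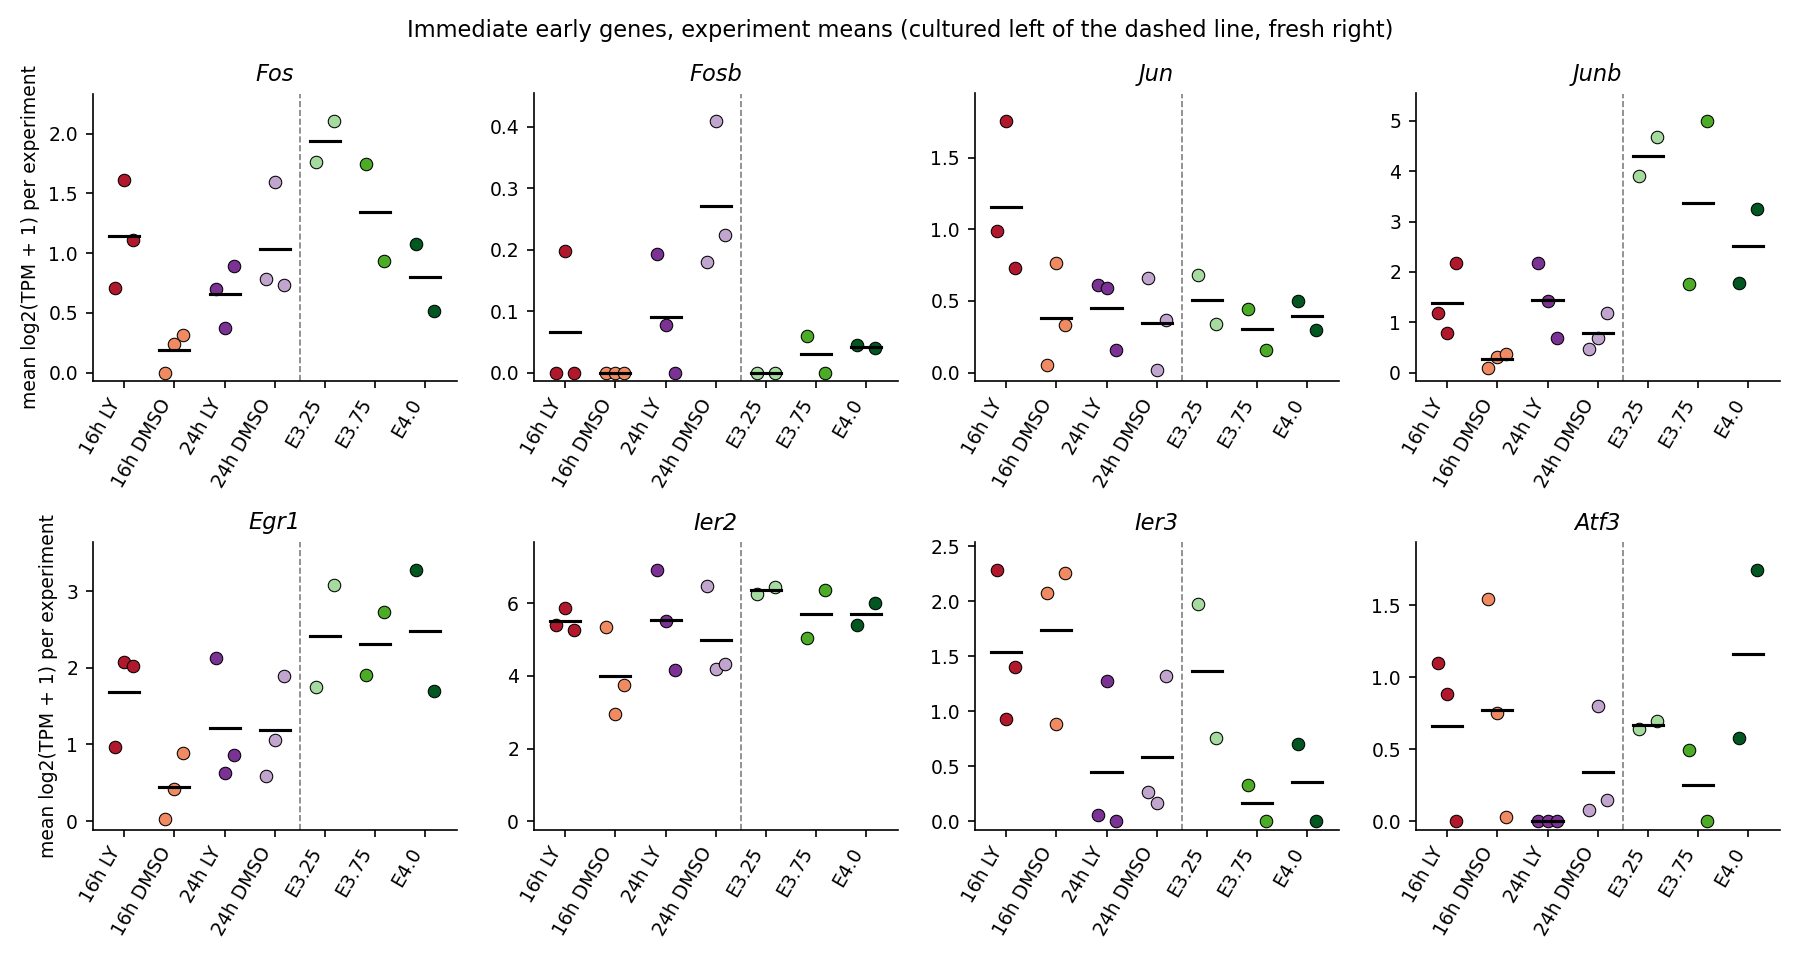
Mean log2(TPM + 1) of each of the 8 genes per experiment (points) in the 7 groups along the x axis, with a bar at the group mean and culture groups left of the dashed line. The fresh points for Junb lie between 1.76 and 4.99 and the cultured ones between 0.09 and 2.19, while the points for Jun and Ier3 overlap widely. The y axes differ between panels.

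Among the FOS proteins, which need a JUN partner to bind DNA, Fos was detected and Fosb almost not. The mean log2(TPM + 1) of Fos ranged from 0.00 to 1.61 with a median of 0.72 over the 12 cultured experiments, and from 0.52 to 2.10 with a median of 1.41 over the 6 fresh ones. In 4 of 12 cultured experiments Fos lay below the lowest fresh one, and 3 of 6 fresh experiments lay above the highest cultured one. A TPM of 1 or more of Fos was seen in 28 of 114 cultured cells (24.6%, exact Clopper-Pearson 95% interval 16.98 to 33.5) and in 24 of 55 fresh cells (43.6%, 30.3 to 57.7). These intervals cover counting error only and treat cells as independent. In cells that had it, the median Fos level was 5.43 TPM in cultured and 7.40 TPM in fresh cells, so the difference was larger in the share of cells than in the level per positive cell.

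Fos also varied among the culture groups. Its experiment means were 0.71, 1.61 and 1.11 in 16h LY, 0.00, 0.24 and 0.32 in 16h DMSO, 0.70, 0.38 and 0.89 in 24h LY and 0.78, 1.60 and 0.73 in 24h DMSO. In fresh cells they were 1.77 and 2.10 for E3.25, 1.75 and 0.94 for E3.75 and 1.08 and 0.52 for E4.0. The 16h DMSO experiments were the lowest and those at E3.25 the highest, with the other groups between them. Fosb reached a TPM of 1 or more in 7 of 114 cultured cells and in 0 of 55 fresh cells, where a count of 0 leaves room for 5.45% (3 of 55 cells). Its highest value in any cell was 3.23 TPM, in 24h DMSO.

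The JUN proteins Jun and Junb, which can form AP-1 with FOS, parted. Junb experiment means ranged from 0.09 to 2.19 with a median of 0.73 in culture, and from 1.76 to 4.99 with a median of 3.57 in fresh cells. In 10 of 12 cultured experiments Junb lay below the lowest fresh one. The exceptions were the third 16h LY and the first 24h LY experiment, both at 2.19. Junb was seen in 33 of 114 cultured cells (28.9%, 20.8 to 38.2) and in 41 of 55 fresh cells (74.5%, 61.0 to 85.3), while the median gene was seen in 52.6% of cultured and 49.1% of fresh cells. Where it was seen, its median was 6.57 TPM in cultured and 17.2 TPM in fresh cells. A Junb level of 10 TPM or more was held by 13 of 114 cultured and 31 of 55 fresh cells.

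By experiment, Junb stood at 1.18, 0.78 and 2.19 in 16h LY, 0.09, 0.32 and 0.38 in 16h DMSO, 2.19, 1.43 and 0.69 in 24h LY and 0.47, 0.69 and 1.19 in 24h DMSO. The fresh values were 3.91 and 4.68 for E3.25, 1.76 and 4.99 for E3.75 and 1.77 and 3.24 for E4.0. The DMSO experiments were all below every fresh one, a separation that 0.531% of all genes showed with the DMSO groups alone. The groups ranked E3.25, E3.75, E4.0, 24h LY, 16h LY, 24h DMSO and 16h DMSO from high to low. Neighbours in that order overlapped in their experiment values except 24h DMSO and 16h DMSO. The 2 experiments at E3.75 differed by more than the fresh stages did from each other.

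A non-coding transcript of Junb overlaps 351 bases at the end of Prdx2, a peroxidase gene on the opposite strand, and the sources used here do not say whether counting used strand. Prdx2 averaged 6.03 ± 1.32 in cultured and 6.90 ± 1.62 in fresh experiments on the log2(TPM + 1) scale (SD, n = 12 and 6). Of cells with 100 TPM or more of Prdx2, 20 of 69 cultured and 28 of 38 fresh cells had Junb at a TPM of 1 or more. Across the 18 experiments, Pearson's r between Prdx2 and Junb was -0.04. The part of these shared bases in the Junb values was not tested.

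Jun, the AP-1 partner whose own promoter AP-1 can bind, was low throughout. Its experiment means ranged from 0.02 to 1.75 with a median of 0.60 in culture, and from 0.16 to 0.68 with a median of 0.39 in fresh cells. Jun was seen in 30 of 114 cultured cells (26.3%, 18.5 to 35.4) and in 9 of 55 fresh cells (16.4%, 7.77 to 28.8). The 3 highest experiments included 2 of 16h LY, and all fresh values lay within the range of the cultured ones. The difference of cultured minus fresh was -0.04 with the DMSO groups alone, -0.00 with the 24h groups alone and -0.05 with cells of sequencing run 1 alone. The antisense gene Junos overlaps Jun and averaged 0.546 TPM in cultured and 0.664 TPM in fresh cells.

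Egr1, a zinc finger factor that is a common readout of ERK activity, was lower in culture in most experiments. Its means ranged from 0.02 to 2.13 with a median of 0.93 in culture, and from 1.69 to 3.28 with a median of 2.31 in fresh cells. In 8 of 12 cultured experiments Egr1 lay below the lowest fresh one, and 3 of 6 fresh experiments lay above the highest cultured one. It was seen in 43 of 114 cultured cells (37.7%, 28.8 to 47.3) and in 34 of 55 fresh cells (61.8%, 47.7 to 74.6). In those cells its median was 6.28 TPM in culture and 9.07 TPM in fresh cells.

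The experiment values of Egr1 were 0.97, 2.07 and 2.02 in 16h LY, 0.02, 0.42 and 0.89 in 16h DMSO, 2.13, 0.63 and 0.87 in 24h LY and 0.59, 1.06 and 1.90 in 24h DMSO. In fresh cells Egr1 had 1.74 and 3.08 for E3.25, 1.90 and 2.72 for E3.75 and 3.28 and 1.69 for E4.0. The fresh stages overlapped fully and held the 3 highest means (2.48 ± 1.12 at E4.0, 2.41 ± 0.94 at E3.25 and 2.31 ± 0.58 at E3.75; SD, n = 2 each). The lowest group was 16h DMSO, at 0.44 ± 0.43 (n = 3). The single highest cell, at 156 TPM, was from E3.25, and the next, at 126 TPM, from 16h LY.

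Ier2, which encodes a nuclear regulator of transcription, had the highest values of the 8 and was seen in nearly every cell. Its means ranged from 2.94 to 6.92 with a median of 5.30 in culture, and from 5.04 to 6.45 with a median of 6.13 in fresh cells. It was seen in 104 of 114 cultured and 55 of 55 fresh cells, so shares could hardly differ, and 5 of 12 cultured experiments were below the lowest fresh one. The lowest experiment was the second of 16h DMSO, at 2.94, and the highest was a 24h LY experiment. The Ier2 difference was -1.74 in run 1 and -0.03 in run 2.

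Ier3, an inhibitor of cell death that also acts in ERK signalling, was like Jun not lower in cultured than in fresh cells. Its means ranged from 0.00 to 2.29 with a median of 1.10 in culture, and from 0.00 to 1.97 with a median of 0.52 in fresh cells. Cultured and fresh experiments overlapped when pooled. The 16 hour experiments were at 2.29, 0.93 and 1.40 in 16h LY and 2.07, 0.89 and 2.26 in 16h DMSO. In 24h LY they were at 0.06, 1.27 and 0.00, and at E3.25 at 1.97 and 0.75. The difference of 0.45 was -0.11 with the 24h groups alone, 1.01 with the 16h groups alone, 0.94 in run 1 and 0.00 in run 2.

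Atf3, a stress-induced factor that can repress its own gene class, was seen in 17 of 114 cultured cells (14.9%, 8.93 to 22.8) and in 11 of 55 fresh cells (20.0%, 10.4 to 32.97). Its means ranged from 0.00 to 1.54 in culture and from 0.00 to 1.75 in fresh cells, and 1 fresh experiment, the second of E4.0, lay above the highest cultured one. It was seen in 0 of 24 cells of 24h LY, where a count of 0 leaves room for 12.5% (3 of 24 cells). The highest cell, at 96.6 TPM, was from 24h DMSO, and the next at 22.4 TPM.

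**Figure D2:**
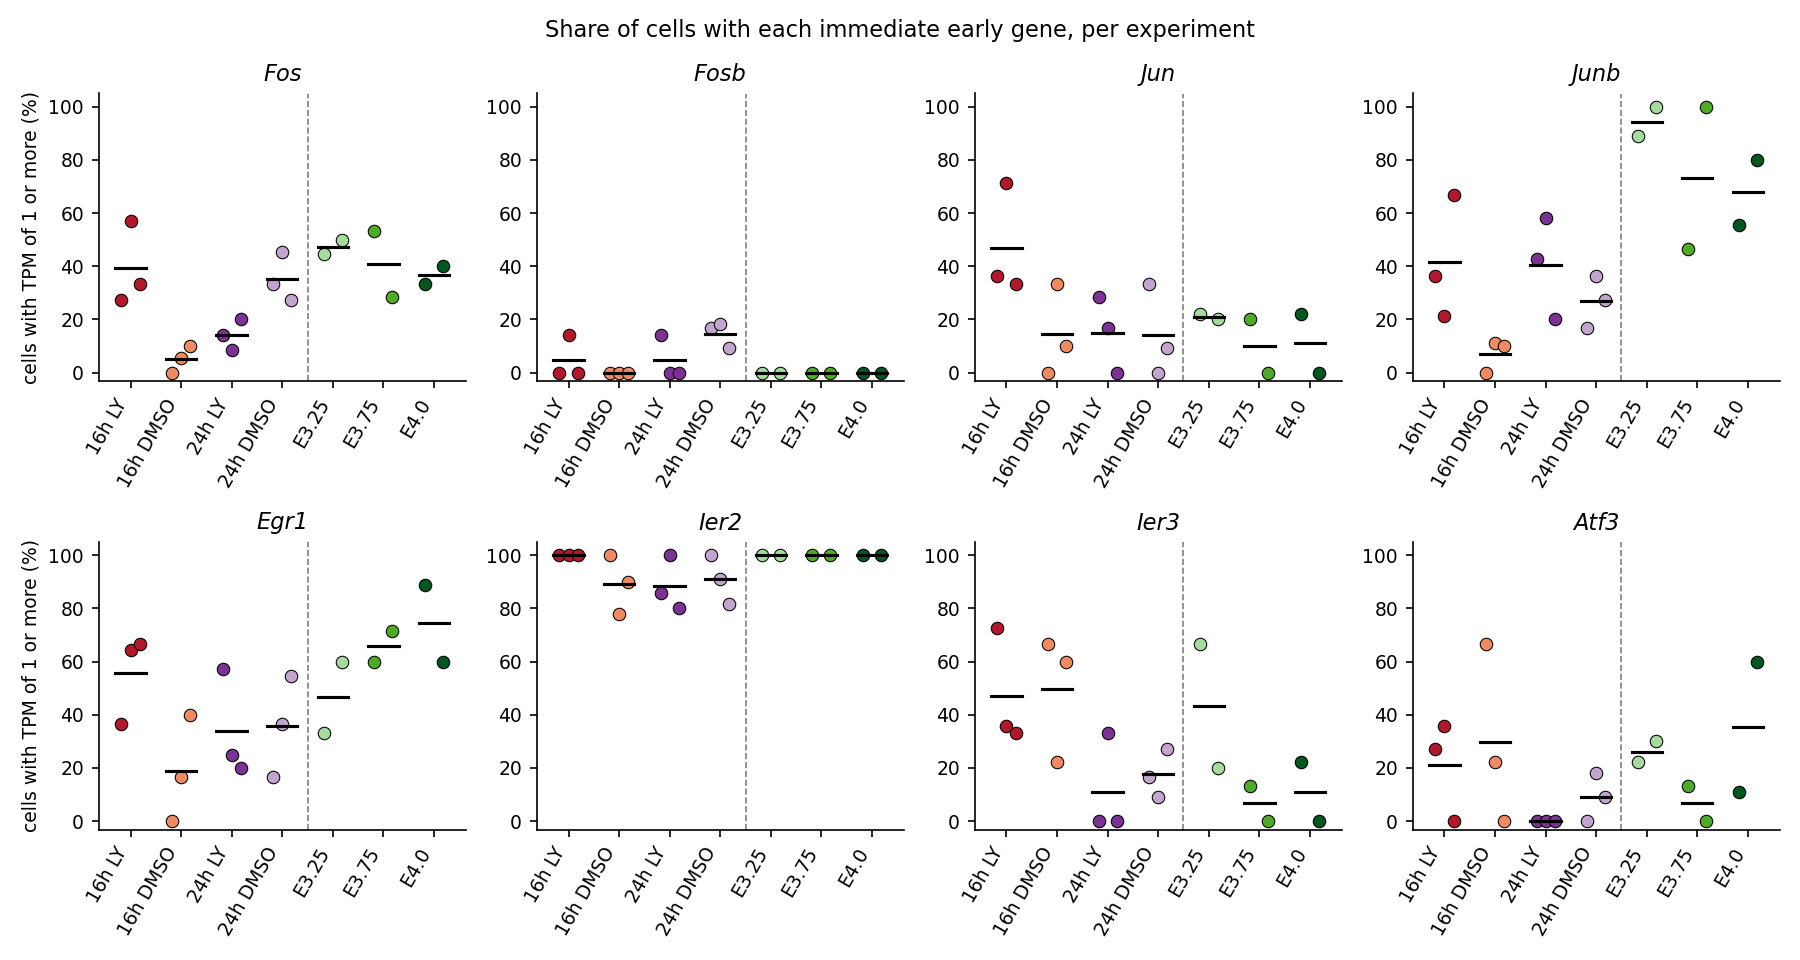
Percentage of cells with a TPM of 1 or more of each gene per experiment (points; bar at the mean over experiments) in the 7 groups, culture groups left of the dashed line. Junb was seen in 46.7% to 100% of cells of a fresh experiment and in 0% to 66.7% of a cultured one, and Ier2 in most cells everywhere.

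The cells were sequenced in 2 runs, each with cells of every experiment. The runs thus share the experiments with which the genes were chosen, so neither is independent support. Levels of Junb, Egr1 and Fos were lower in culture in both runs, while the Ier2 difference was -1.74 in run 1 and -0.03 in run 2. The first 16h DMSO and the third 24h LY experiment each had 1 cell in run 1. Junb averaged 1.18 in cultured and 3.12 in fresh cells of run 1, and 0.72 in cultured and 3.49 in fresh cells of run 2. Egr1 averaged 1.20 and 2.51 in cultured and fresh cells of run 1, and 0.97 and 2.36 in those of run 2. Fos averaged 0.48 and 1.31 in cultured and fresh cells of run 1, and 0.96 and 1.34 in those of run 2. With 24h cultures alone, leaving out the later dates, the differences were -2.28 for Junb, -1.21 for Egr1, -0.65 for Ier2 and -0.51 for Fos. The time between collection and lysis of cells is not given in the labels, and its part in these values was not tested.

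Counted per cell, the mean number of the 8 genes seen was higher in fresh and 16h LY cells than in the other culture groups. This mean is the sum of the shares of cells with each gene, so it adds no further support. Whether the genes were seen together more often than those shares imply was not tested. The mean number seen was 2.56 ± 0.70 over cultured experiments and 3.40 ± 0.34 over fresh ones (SD, n = 12 and 6). In 7 of 114 cultured cells and 0 of 55 fresh cells none of the 8 was seen, and 4 or more were seen in 30 of 114 cultured and 22 of 55 fresh cells. By group the means were 3.57 ± 0.38 in 16h LY and 2.14 ± 0.23 in 16h DMSO, 2.08 ± 0.59 in 24h LY and 2.44 ± 0.11 in 24h DMSO (n = 3 each), then 3.79 in E3.25, 3.03 in E3.75 and 3.37 in E4.0 cells. Genes detected per cell averaged 6832 in 16h LY (5809 to 8303 over experiments) and 8084 in 16h DMSO (7102 to 9995). The highest of these 16h DMSO values came from the experiment with 3 cells. The part of genes detected in these counts was not tested.

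**Figure D3:**
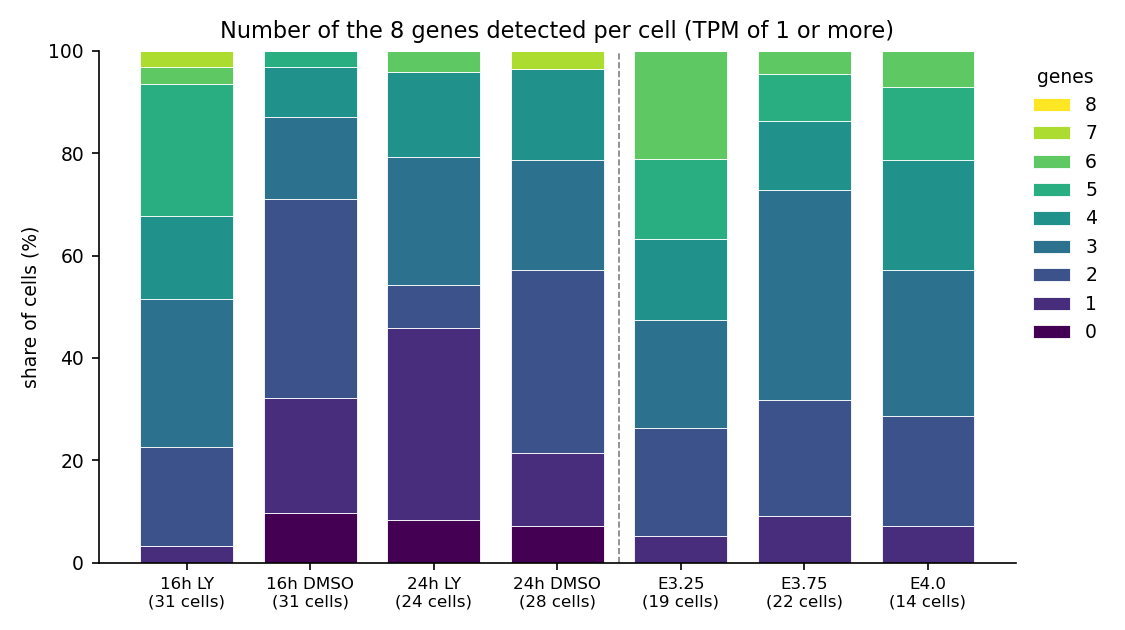
Share of cells of each group (y axis, percent) by how many of the 8 genes had a TPM of 1 or more in the cell (colour). Cells with 4 or more of the genes made up 48.4% of 16h LY and 12.9% of 16h DMSO cells, against 52.6% of E3.25, 27.3% of E3.75 and 42.9% of E4.0 cells.

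The 4 genes that were lower in culture by 0.60 or more were compared pairwise. They were picked by that difference, so r across experiments was in part set by the choice, for these genes and for the others. Pearson's r over the 18 experiment means was 0.71 between Junb and Egr1, 0.61 between Fos and Egr1 and 0.61 between Junb and Ier2. It was 0.48 between Fos and Junb, 0.46 between Egr1 and Ier2 and 0.31 between Fos and Ier2. Within experiments, over 169 cells, the r of these 6 pairs were 0.36, 0.39, 0.21, 0.21, 0.30 and 0.27. Ier3 had r of -0.24, -0.24 and -0.32 with Fos, Junb and Egr1 across experiments, and Atf3 had -0.05, -0.03 and -0.14. Within experiments these were 0.01, 0.10 and -0.02 for Ier3 and 0.07, 0.11 and 0.05 for Atf3. Jun had r of 0.18, -0.15 and 0.09 with Fos, Junb and Egr1 across experiments. Within experiments Jun had 0.27, 0.09 and 0.14. Both members of a pair come from the same library, so these values share its quality and group.

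With LY294002 at 16 hours Fos, Junb, Egr1 and Ier2 stood above their matched controls on every date, and so did Jun, but none passed the test. Jun was tested at all only because 51.6% of 16h LY cells had it (at most 22.6% in any other group), so its place above 16h DMSO adds no support. Fos, Junb, Egr1 and Ier2 were higher in 16h LY than in 16h DMSO on all 3 dates, as were 5.34% of all genes. The experiment means of Fos, Junb and Egr1 did not overlap between the arms, with 16h LY above, as for 1.35% of all genes. In limma's test of all 11680 genes, 0 of the 7 members and 0% of all genes were called (641 genes at an unadjusted p under 0.05). Of the 7 members, Fos was under an unadjusted p of 0.05, as was Jun with the same reservation.

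The differences of 16h LY minus 16h DMSO were 0.96 ± 0.38 (SE) for Fos, 0.77 ± 0.29 for Jun, 1.12 ± 0.70 for Junb, 1.24 ± 0.60 for Egr1 and 1.51 ± 0.77 for Ier2. Their limma adjusted p was 0.854 each. Ier3 and Atf3 differed by -0.20 ± 0.50 and -0.11 ± 0.37 (limma adjusted p = 0.953 and 0.963). The median over all genes was -0.33. With the date as a block, which pairs the arms, the adjusted p of the first 5 genes was 0.341 to 0.379 in limma and again 0 genes were called (1413 at an unadjusted p under 0.05). The sign of these 5 differences was the same in all 17 recomputations, but several of these could not change it. The date block, no filter and a fit of only these groups leave the difference itself as it is. Leaving out 1 experiment could not reverse Fos, Junb or Egr1, whose arms did not overlap. For Jun the reservation above holds here too.

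By date, the 16h difference was 0.71, 1.37 and 0.79 for Fos, 1.09, 0.47 and 1.81 for Junb, and 0.95, 1.65 and 1.13 for Egr1. For Jun it was 0.94, 0.99 and 0.40, and for Ier2 0.06, 2.94 and 1.52. The second date had the largest value for all of these except Junb, and the first date rests on 3 DMSO cells. In numbers of cells, Fos was seen in 13 of 31 16h LY and 2 of 31 16h DMSO cells, Junb in 11 and 3, Egr1 in 17 and 7 and Jun in 16 and 7. Ier2 was at 10 TPM or more in 31 of 31 16h LY and 19 of 31 16h DMSO cells.

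**Figure D4:**
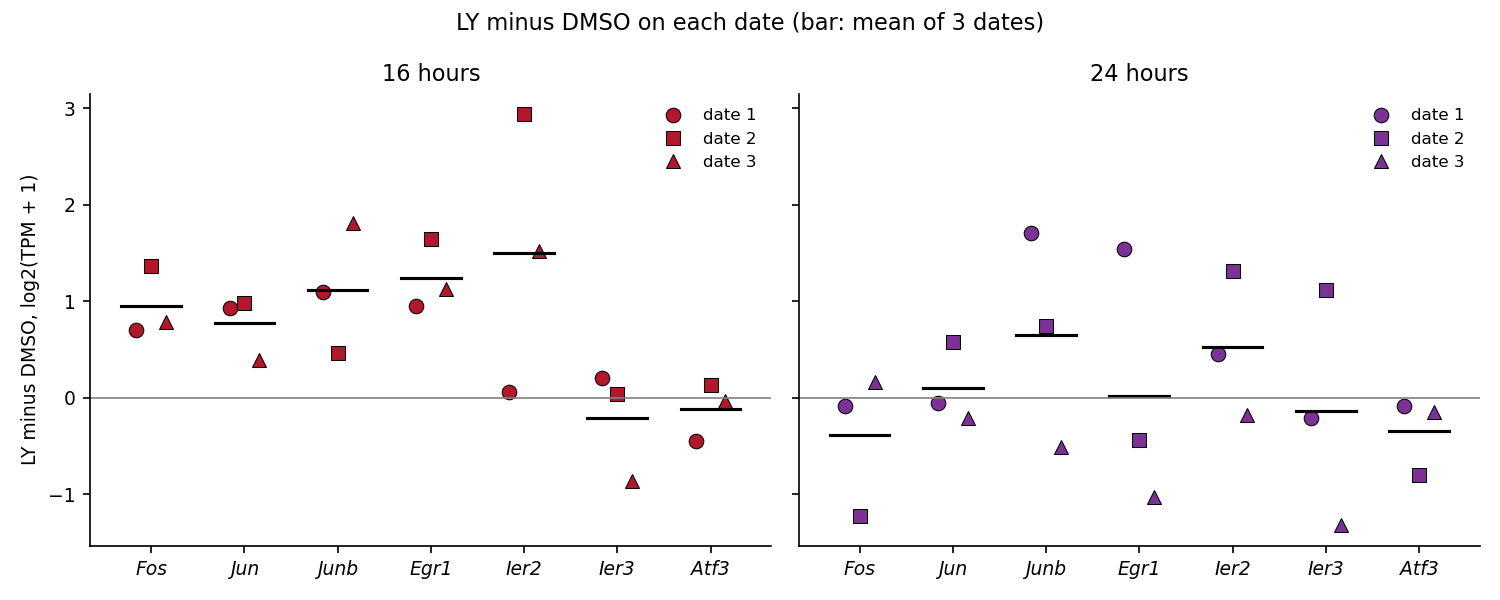
LY minus DMSO in mean log2(TPM + 1) on each of the 3 dates (symbols; bar at their mean) for the 7 tested genes, at 16 hours (left) and 24 hours (right). At 16 hours all 3 symbols lie above 0 for Fos, Jun, Junb, Egr1 and Ier2, and at 24 hours for none of the 7 genes.

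After 24 hours the arms were mixed. None of the 7 genes was higher in 24h LY on all 3 dates, against 6.33% of all genes, and 0 members and 0% of all genes passed limma's test (615 at an unadjusted p under 0.05). The differences of 24h LY minus 24h DMSO were -0.38 ± 0.38 for Fos, 0.11 ± 0.29 for Jun, 0.65 ± 0.70 for Junb, 0.03 ± 0.60 for Egr1 and 0.53 ± 0.77 for Ier2 (SE; limma adjusted p = 0.942 to 1). Atf3, listed at 0 in all 24h LY experiments and at 0.08, 0.80 and 0.15 in 24h DMSO, was the 1 member without overlap, and 8.64% of all genes were lower without overlap. The LY effect at 24 hours minus that at 16 hours was -1.34 ± 0.54 for Fos, -1.22 ± 0.85 for Egr1 and -0.67 ± 0.42 for Jun. No member passed (limma adjusted p = 1). Jun was tested only through its 16h LY cells, so its value adds no support here either. In that test of the difference 0% of all genes were called, with 291 at an unadjusted p under 0.05.

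Among fresh stages, Fos, Junb and Ier3 were lower at E4.0 than at E3.25 without passing the test. The difference of E4.0 minus E3.25 was -1.14 ± 0.47 for Fos, -1.79 ± 0.86 for Junb, -1.01 ± 0.61 for Ier3 and -0.66 ± 0.94 for Ier2 (SE; limma adjusted p = 0.297, 0.388, 0.533 and 0.834). These 4 genes did not overlap between the stages, 2 experiments against 2, as 15.2% of all genes did not in that direction. Egr1, Jun and Atf3 differed by 0.07, -0.11 and 0.49 (limma adjusted p = 0.981, 0.940 and 0.719). Of the members 0 of 7 were called and of all genes 1.67%, that is 195, with 1502 at an unadjusted p under 0.05. Leaving out the second E3.25 experiment gave 70 genes, the first E3.25 experiment 127 and the first E4.0 experiment 304.

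Between the solvent cultures no member was called, and their culture time cannot be told apart from their dates. Fos was 0.85 ± 0.38 higher in 24h DMSO than in 16h DMSO, Ier2 0.99 ± 0.77, Egr1 0.74 ± 0.60 and Junb 0.52 ± 0.70, while Ier3 differed by -1.16 ± 0.50 (SE; limma adjusted p = 0.423, 0.697, 0.717, 0.863 and 0.410). Fos and Junb did not overlap, with 24h DMSO above, as for 2.16% of all genes. Egr1, Ier2 and Ier3 overlapped between the groups. In limma's test 0 of 7 members and 0.00856% of all genes, that is 1 gene, passed (1268 at an unadjusted p under 0.05). Leaving out the second 16h DMSO experiment gave 8 genes.

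Beyond the 8, 33 of 47 other immediate early and early response genes were tested between cultured and fresh cells, and 2 fell in culture. Over all genes 2.16% were called and 1.63% lower. Ccn1, a secreted matrix protein induced by SRF and YAP, was at a mean log2(TPM + 1) of 0.40 in cultured and 1.52 in fresh experiments, with a difference of -1.12 ± 0.24 (SE; limma adjusted p = 0.0132). Socs3, a feedback inhibitor of STAT3, was at 0.61 in cultured and 2.19 in fresh experiments, a difference of -1.58 ± 0.34 (limma adjusted p = 0.0145). In all, 23 of the 33 were below 0, with a median of -0.36. The call ended with DMSO groups alone (limma adjusted p = 0.190 for Ccn1 and 0.198 for Socs3) and without the second E3.75 experiment (0.0822 and 0.0917). It also ended without the second E4.0 experiment (0.0506 and 0.0745), and without an E3.25 experiment, the first for Ccn1 (0.0545) and the second for Socs3 (0.0649). For both it ended in run 1, with 24h or 16h groups alone and with no filter on low values (limma adjusted p = 0.0509 to 0.325), for Ccn1 with log2(mean TPM + 1) (0.150) and for Socs3 in run 2 (0.0591). The most abundant genes of the list did not pass: Mcl1, of cell survival, differed by -0.36, the BMP target Id3 by -2.67 and the factors Klf4 and Klf2 by -1.14 and -1.08 (limma adjusted p = 0.698, 0.0894, 0.212 and 0.242).

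Of other AP-1 family genes, 7 of 11 were tested and 0 were called between cultured and fresh cells by limma. Jund, the JUN protein that is commonly made without a stimulus, differed by 0.57 ± 0.36, Mafg by 0.09, Atf7 by -0.20 and Atf2 by 0.24 (limma adjusted p = 0.534, 0.960, 0.936 and 0.797). Of 18 genes upstream (SRF and its partners, CREB factors and MAP kinases), 0 were called in that comparison. Map2k2, which activates ERK, differed by -0.26, and the p38 kinase Mapk14 by -1.12 (limma adjusted p = 0.822 and 0.255). Elk3, an ETS partner of SRF, rose by 0.90 ± 0.19 at E4.0 relative to E3.25 (limma adjusted p = 0.0116). It averaged 0.05 in cultured and 0.38 in fresh experiments. It may thus have passed the filter only through E4.0, so its rise adds no support, and it was not tested in run 2. The call ended without the first (limma adjusted p = 0.0634) or the second E3.25 experiment (0.119), with quantile normalization (0.0735), in run 1 (0.0767) and in a fit of only these stages (0.438).

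Stress genes were examined because they are often induced together with the immediate early class. Of 11 tested heat shock genes, 1 fell in culture: the chaperone gene Hsph1 was at 4.18 in cultured and 6.12 in fresh experiments, a difference of -1.95 ± 0.45 (SE; limma adjusted p = 0.0229). That call ended without the second E3.25 (0.0879), the second E3.75 (0.0821), the first E4.0 (0.0525) or the second E4.0 experiment (0.0506), and in run 1, with DMSO or 24h groups alone and with no filter (0.0813 to 0.386). The abundant chaperone genes Hspa8, Hsp90ab1 and Hsp90aa1 differed by 0.13, 0.19 and 0.63 (limma adjusted p = 0.882, 0.852 and 0.547). At 16 hours all 11 were below 0 in 16h LY against 16h DMSO, with a median of -0.92 beside -0.33 for all genes and 0 calls. Of 7 genes of the integrated stress response, the pathway in which ATF4 and ATF3 act, 0 were called between cultured and fresh cells, and Atf4 differed by 0.06 and Ddit3 by 1.13 (limma adjusted p = 0.974 and 0.473).

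Markers of cell identity moved between cultured and fresh cells too. Of 10 primitive endoderm markers 7 were lower in cultured cells than in the 3 fresh stages pooled. Among them were Gata4 and Srgn, with differences of -2.17 and -1.87 (limma adjusted p = 0.000704 and 3.13e-05). Counting only these 7 genes, 0 were still called in run 1 alone, 2 with DMSO groups alone, 3 with 24h groups alone and 2 with log2(mean TPM + 1). The fresh stages differ in these markers: 5 of 10 rose at E4.0 relative to E3.25, among them Srgn by 5.21 and Foxa2 by 3.09 (limma adjusted p = 2.07e-07 and 7.43e-07). These calls ended in a fit of only these stages (limma adjusted p = 0.187 and 0.391) and, for Srgn, in run 1 (0.0791). Of the 5, Foxa2 and Sox7 averaged only 0.06 and 0.08 in cultured and 1.07 and 0.73 in fresh experiments. They may have passed the filter only through E4.0, a fresh stage, and so may Srgn, at 0.24 in cultured and 2.11 in fresh experiments. For these genes neither the rise nor the lower level in culture thus adds support. The part of E4.0 in the difference between cultured and fresh cells was not tested. Of 8 epiblast markers 2 fell, Fgf4 and Tdgf1, with differences of -2.23 and -3.27 (limma adjusted p = 0.00679 and 0.00225), and of 10 tested trophectoderm markers 1 rose, the keratin gene Krt18, by 2.57 (limma adjusted p = 0.0220). In run 1 alone the calls of Gata4, Srgn, Fgf4 and Krt18 ended (limma adjusted p = 0.204 to 0.399), and with DMSO groups alone those of Gata4, Fgf4 and Tdgf1 (0.0597 to 0.227). With 24h groups alone those of Gata4, Fgf4 and Krt18 ended (0.0607 to 0.144), and that of Srgn with log2(mean TPM + 1) (0.124). The call of Krt18 also ended in run 2, with no filter, and without the first E3.25, the second E3.75 or the first E4.0 experiment (0.0635 to 0.135). At 16 hours 10 of 10 trophectoderm markers were below 0 in 16h LY against 16h DMSO, with 0 calls. Their median was -0.73 beside -0.33 for all genes. They summed to 155 to 266 TPM in 16h LY and 183 to 1042 TPM in 16h DMSO. The blood markers summed to 3.74 to 22.4 TPM in 16h LY and 1.18 to 10.5 TPM in 16h DMSO. The part of these marker genes in the values of the immediate early genes was not tested.

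The genes whose experiment means ran most like the mean z-score of the 7 tested members were Gm8375 (Pearson's r = 0.77 over 18 experiments), Yrdc (0.76), Ovol2 (0.74), Tpt1-ps2 (0.73), Ano6 (0.72), Ttc13 (0.71), Gm2694 (0.71), Tpt1-ps7 (0.71), Hes6 (0.69) and Tnrc6c (0.68). They are the 10 highest of all tested genes and so had to be high, and pseudogenes among them have uncertain values. Yrdc, which modifies transfer RNA, was at 3.14 ± 0.82 in cultured and 4.41 ± 0.95 in fresh experiments (SD, n = 12 and 6). Fos alone was most like Gm15131 (0.82), Galm (0.66) and Gm20659 (0.64), and Egr1 most like Gm43118 (0.71), Rpl13-ps6 (0.71) and 4921516A02Rik (0.71).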

How the data were processed

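The authors deposited 1 table of TPM values with 170 columns, each matched to a sample by its title. The labels describe 186 samples, and the 16 without a column were not analysed here. The submitters' processing notes name STAR 2.7.9a, RSEM 1.3.3, cutadapt 2.9, bcl2fastq 2.20.0 and build mm10. Settings and annotation are not given in the sources used here. Reverse transcription started at the 3′ end, per the labels' protocols, so TPM compares 1 gene between samples.

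From the 55513 lines, 92 spike-ins were left out. A pair of E3.25 columns with 1 cell code was averaged (r = 0.824), which left 169 cells. Another such pair, in 24h LY, correlated less with itself (0.594) than with other cells (up to 0.724) and was kept apart, and it may be 1 cell. The 18 experiment means of log2(TPM + 1) (7 groups) entered 1 model in limma 3.58.1 (R 4.3.3; trend, 11 residual degrees of freedom, Benjamini-Hochberg adjustment over 11680 genes per comparison, threshold 0.05), after tests on simulated data. Labels tie the arms of a culture time to shared dates; deviations of same-date arms correlated at 0.0732 to 0.393. Nothing says which animals a cell came from. The genes named with values were the 8 members, list genes past the threshold, up to 4 of the most abundant genes per list, and the most alike genes. Members and lists were chosen with earlier results of these data known.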

Additional observations from a re-analysis of the deposited data

How the results depend on the processing

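Of 602 recomputed differences of the 7 tested members in the other 5 comparisons than cultured against fresh, 540 kept their sign, 62 reversed and none passed the threshold (lowest limma adjusted p = 0.134). In the comparison of cultured and fresh cells, Junb, Egr1, Ier2 and Fos kept their sign in all recomputations, while Jun, Ier3 and Atf3 did not (Atf3 was at 0.024 with 16h groups only). Some settings, such as no filter on low values, leave a difference as it is, so a kept sign is no independent support. The causes of the changes below were not tested.

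The 252 genes called between cultured and fresh cells became 162 with log2(mean TPM + 1), 388 with quantile normalization, 482 with genes detected as a covariate, 12 with cells of run 1 alone, 39 with DMSO groups only and 42 with 24h groups only, and 91 to 405 on leaving out 1 experiment (140 without the second E3.25, 91 without the second E3.75, 405 without the first E4.0 and 165 without the second E4.0). Junb was the 1 member without overlap with run 2 alone (0.173% of all genes) and with DMSO groups only (0.531%). For 16h LY against 16h DMSO the count of 0 became 1 with log2(TPM + 10), with log2(mean TPM + 1) and with no filter, and 0 to 2 on leaving out 1 experiment (1 without the first 16h LY, 2 without the second 16h DMSO). For 24h LY it became 1 with run 1 alone. The 195 genes between E4.0 and E3.25 became 129 with log2(mean TPM + 1), 361 with no filter, 22 in run 1, 488 in run 2, 0 in a fit of only these groups and 70 to 304 on leaving out 1 experiment. The 1 gene between 24h DMSO and 16h DMSO became 2 with log2(TPM + 0.1), 3 with no filter, and 0 with quantile normalization, the covariate, run 1, run 2 and a fit of only these groups. Leaving out 1 experiment gave 0 to 8 (8 without the second and 2 without the third 16h DMSO, 0 without the first or the second 24h DMSO).

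Reversed differences were as follows. With log2(TPM + 0.1), Egr1 was at -0.066 in 24h LY against 24h DMSO. With log2(TPM + 10), Ier3 was at -0.018 in the difference of LY effects, Egr1 at -0.21 in E4.0 against E3.25 and Jun at 0.014 in 24h DMSO against 16h DMSO. With log2(mean TPM + 1), Ier3 was at 0.075 in 16h LY against 16h DMSO and -0.48 in the difference of LY effects, Egr1 at -1.08 in E4.0 against E3.25, and Jun at 0.18 and Atf3 at 0.038 in 24h DMSO against 16h DMSO. With quantile normalization, Ier3 and Atf3 were at 0.16 and 0.15 in 16h LY, Ier3 at 0.047 in 24h LY and -0.11 in the difference, Egr1 at -0.20 in E4.0 and Jun at 0.066 in 24h DMSO. With the covariate, Ier3 and Atf3 were at 0.25 and 0.31 in 16h LY. Jun, Egr1, Ier3 and Atf3 were then at -0.0028, -0.33, 0.23 and 0.0047 in 24h LY, Ier3 at -0.019 in the difference, Jun at 0.017 in E4.0 and Atf3 at 0.12 in 24h DMSO. In run 1, Atf3 was at 0.19 in 16h LY, Fos, Jun, Egr1 and Ier2 at 0.015, -0.12, -0.51 and -1.76 in 24h LY, Ier3 at -0.23 in the difference, Egr1 at -1.05 in E4.0, and Jun and Atf3 at 0.0070 and 0.046 in 24h DMSO. In run 2, Ier3 was at 0.047 in 24h LY and Atf3 at 0.073 in the difference.

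Leaving out 1 experiment at a time gave ranges across 0 in 16h LY for Ier3 (-0.63 to 0.10) and Atf3 (-0.49 to 0.27). In 24h LY they were -0.061 to 0.26 for Jun, -0.44 to 0.38 for Egr1, -0.17 to 1.27 for Ier2 and -0.55 to 0.23 for Ier3. In the difference of LY effects Ier3 ranged from -0.35 to 0.49 and Atf3 from -0.61 to 0.15. In E4.0 against E3.25 the ranges were -0.29 to 0.059 for Jun, -0.72 to 0.87 for Egr1 and -0.091 to 1.08 for Atf3, and in 24h DMSO against 16h DMSO -0.20 to 0.16 for Jun. The replicate block by date changed no call: 0 members and 0 genes passed in 16h LY, 24h LY and their difference (1413, 1334 and 707 genes at an unadjusted p under 0.05 in limma). Leaving the pair of E3.25 columns unaveraged changed no member's sign. Depth is unknown, so a gene at 0 TPM in a cell cannot be told from one below detection. The shares of cells at 10 TPM or more are an alternative chosen after seeing the data.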
